A study of Mus musculus with 4 samples.

Results

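The nuclear pore genes were taken as every symbol that reads Nup followed only by digits, together with Pom121, Tpr, Ranbp2, Ndc1, Aaas, Rae1, Seh1l, Sec13, Nupl1 and Nupl2. They came to 29 of the 25239 symbols counted, and all 29 were among the 14525 genes tested. The nuclear pore complex is the channel through the nuclear envelope that proteins and RNA pass. A scaffold of ring-shaped subcomplexes is anchored by membrane proteins and lines the opening, and nucleoporins with repeats of phenylalanine and glycine (FG repeats) fill it and bind the transport receptors. FG nucleoporins are classic substrates of O-GlcNAc transferase (OGT), the enzyme that puts N-acetylglucosamine on serine and threonine residues inside the cell. The question asked here was whether the mRNA of the pore genes differed once Ogt was deleted. mRNA counts say nothing of the sugar on the proteins.

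The study used mouse embryonic stem cells (mESC) of the genotype Ogt fl/fl on mitomycin C-treated fibroblast feeders, in medium with LIF and serum replacement. In the Ogt iKO group (2 libraries) the cells had received 4-OHT, a tamoxifen metabolite used to switch on inducible recombinases, for 6 days. In the control group (2 libraries) cells of that same genotype had been kept without it. The labels describe a sort for viable cells meant to remove feeders, and for the treated cells also a YFP gate. A group with 4-OHT and intact Ogt was not analysed here, so the deletion, the ligand and the YFP gate cannot be told apart. The recombinase and its promoter are not given in the sources used here. The labels do not say whether replicates were separate cultures, so p-values measure the spread between these libraries, which may be technical.

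Library totals ran from 14668489 to 16504204 counts. The targeted gene, Ogt, had 2963 and 3108 counts in the controls and 437 and 389 in Ogt iKO, 12.9% of control. Of 17 stem-cell markers on the list used, all of them detected, 16 were called lower in Ogt iKO and 0 higher. Of all genes tested, 32.0% were called lower and 33.2% higher. The markers summed to 3991 and 4427 CPM in Ogt iKO against 6836 and 6845 CPM in control. CPM are counts per 1000000, scaled by the trimmed mean of M-values (TMM). Pou5f1, which encodes OCT4, had 489 and 575 CPM in Ogt iKO against 894 and 850 CPM in control (log2 change -0.71, edgeR adjusted p 9.58e-05). Ogt iKO replicate 1 stood apart in fibroblast markers. Of 24 such genes, 5 were called higher and 1 lower, against 33.2% and 32.0% of all genes tested. They summed to 5406 CPM there, against 2482 CPM in Ogt iKO replicate 2 and 3042 and 3340 CPM in the controls, and none was at 0. Col1a1, a collagen gene, had 15453 counts in that library and 2785 to 4809 in the other three. The labels name CD90.2 as the positive marker of the stem cells and CD326 as the one used to exclude feeders. Thy1, which encodes CD90, lay between 8.90 and 25.6 CPM, and Epcam, which encodes CD326, between 280 and 347 CPM. Epcam was thus far above Thy1 in all 4 libraries, the reverse of the named roles. How the cells were in fact gated was not tested. Like Col1a1, Thy1 was highest in Ogt iKO replicate 1 and lowest in Ogt iKO replicate 2. The counts of called genes in each group and pathway list are therefore also given without Ogt iKO replicate 1. The part of either marker list in the other results was not tested.

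The FG-repeat group was checked against coding sequence, because membership rested on textbook knowledge. In-frame pairs of a phenylalanine and a glycine codon (TTTGGN or TTCGGN) were counted in the longest complete coding transcript of 28 members (GENCODE M21, GRCm38), Nupl1 having none. The 9 FG-repeat genes with a sequence had 0.655 to 2.62 pairs per 100 codons, and the 13 scaffold genes 0 to 0.923. The ranges overlapped, since Nup35 of the scaffold (0.923) exceeded Ranbp2 (0.655), whose long product also holds other domains. Outside both groups, Rae1 (0.815) and Ndc1 (0.743) exceeded Ranbp2 too. The stretches below show 180 bases with the most such pairs inside an exon, for the FG gene that fell most (Nup62), for a basket protein that fell slightly (Nup153) and for a cytoplasmic filament protein that was not called (Ranbp2). Capitals mark the codon pairs, and sequences are from GENCODE M21 on GRCm38.
Nup62 codons 1 to 60 (chr7:44828563-44828742, plus strand): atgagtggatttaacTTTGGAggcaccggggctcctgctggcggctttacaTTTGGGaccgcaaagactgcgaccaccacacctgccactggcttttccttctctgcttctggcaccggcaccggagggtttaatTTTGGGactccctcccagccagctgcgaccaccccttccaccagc
Nup153 codons 1292 to 1351 (chr13:46683079-46683258, minus strand): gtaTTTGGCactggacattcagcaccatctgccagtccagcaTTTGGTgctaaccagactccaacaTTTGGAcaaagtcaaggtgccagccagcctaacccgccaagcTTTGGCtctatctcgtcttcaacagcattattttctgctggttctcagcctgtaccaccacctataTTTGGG
Ranbp2 codons 2325 to 2384 (chr10:58480432-58480611, plus strand): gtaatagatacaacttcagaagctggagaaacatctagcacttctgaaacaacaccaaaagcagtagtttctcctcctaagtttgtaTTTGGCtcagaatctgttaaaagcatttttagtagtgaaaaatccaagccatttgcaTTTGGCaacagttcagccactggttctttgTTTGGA
Nup62 had 6 pairs in 526 codons, Nup153 had 29 in 1462 and Ranbp2 had 20 in 3053.

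Lower mRNA levels ran through most of the pore. In Ogt iKO, 23 of the 29 genes were lower and 0 were higher at an adjusted p under 0.05 (edgeR's quasi-likelihood test, Benjamini-Hochberg adjustment over all 14525 genes). Across all genes tested, 32.0% were called lower and 33.2% higher. The median log2 fold change of the 29 genes was -0.32, against 0.02 over all genes tested. Both Ogt iKO libraries lay below both controls for 25 of the 29 genes, against 40.9% of all genes tested. Scaling by library totals alone, which moved the median of all genes by 0.17, left 15 lower and 3 higher (Ranbp2, Aaas and Nup50), where 22.6% of all genes were lower and 42.1% higher. Without Ogt iKO replicate 1, 22 were lower and 0 higher. In bulk RNA, fewer cells of a kind and less RNA per cell cannot be told apart.

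**Figure D1:**
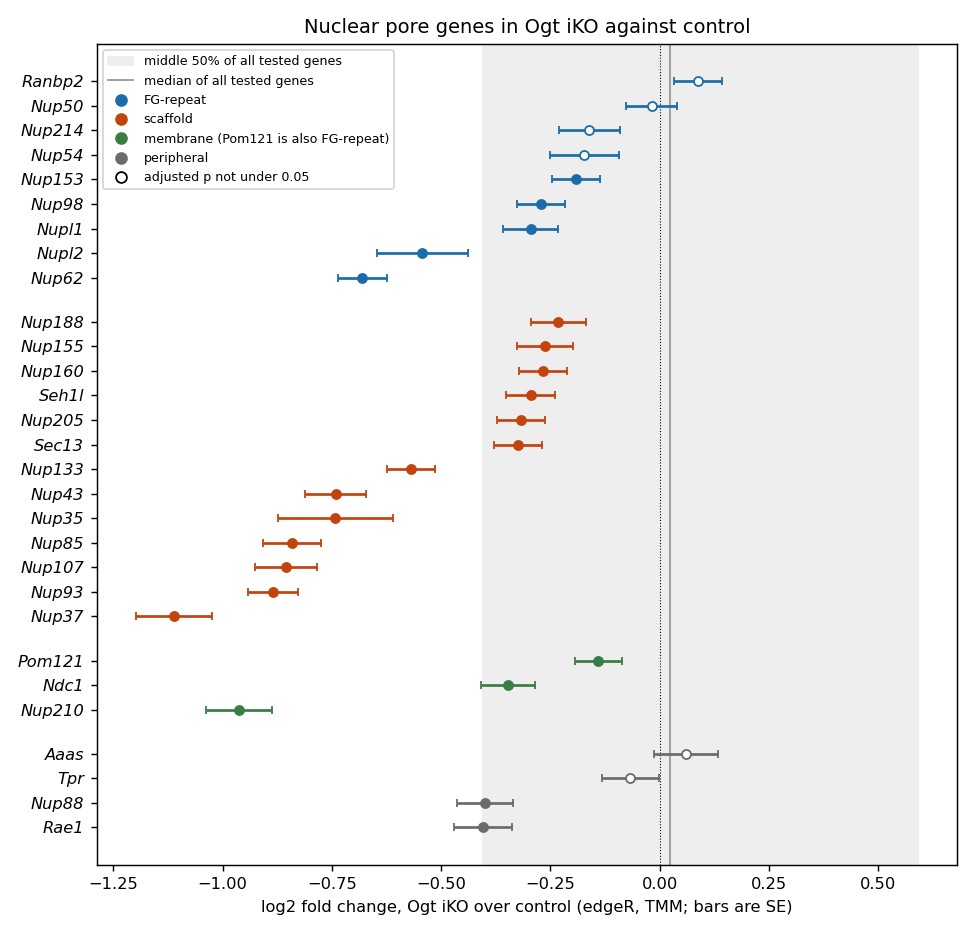
Log2 fold change of each nuclear pore gene (x axis, Ogt iKO over control, bars are SE, 2 libraries a group) by group. Filled points had an adjusted p under 0.05 in edgeR with TMM scaling, the grey line and band are the median and interquartile range of all tested genes, and all 13 scaffold genes are filled and lie below 0, from -1.11 to -0.23 (4 of them lost the call under library totals).

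All 13 scaffold genes were lower in Ogt iKO, with a median log2 fold change of -0.57 and a range from -1.11 (Nup37) to -0.23 (Nup188), where 32.0% of all genes tested were lower. Under library totals 9 were called lower and 0 higher, against 22.6% and 42.1% of all genes, the ones lost being Nup155, Nup160, Nup188 and Seh1l. Without Ogt iKO replicate 1, all 13 were called lower. Without control replicate 2, Nup188 was not called (log2 fold change -0.19, adjusted p 0.0694, edgeR) and the other 12 were.

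Within the scaffold, the Y complex (8 genes here), which builds the outer rings on both faces of the pore, had a median of -0.65. Nup37, a WD-repeat subunit, fell most of all 29 genes. It lies on chromosome 10 from 88146976 to 88178395 (RefSeq, GRCm38). Nup37 had 48.6 and 55.0 CPM in Ogt iKO against 118 and 106 CPM in control. The groups were well apart, and Nup37 fell to 46.3% of control (log2 change -1.11 with SE 0.0865, edgeR adjusted p 1.43e-05). Only 4.94% of all genes tested had a lower log2 fold change.

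Nup107 (chromosome 10, 117750621 to 117792736) encodes a stem subunit of the Y. It had 128 and 144 CPM in Ogt iKO against 253 and 239 CPM in control. Both treated libraries were low and Nup107 fell to 55.3% of control (log2 change -0.86 with SE 0.0700, edgeR adjusted p 1.84e-05). Nup85, an arm subunit of the Y (chromosome 11, 115564432 to 115583924), moved in the same way. Its level was 128 and 144 CPM in Ogt iKO against 243 and 245 CPM in control, with no overlap. Nup85 fell to 55.8% of control (log2 change -0.84 with SE 0.0666, edgeR adjusted p 1.56e-05). Nup43 (chromosome 10, 7667504 to 7678886), another WD-repeat subunit, had 80.8 and 88.1 CPM in Ogt iKO against 146 and 136 CPM in control. It fell by 0.74 on the log2 scale (SE 0.0697, edgeR adjusted p 3.78e-05). Nup133, at the tip of the stem, had 192 and 195 CPM against 291 and 283 CPM and fell by 0.57 (SE 0.0547). Exons on the other strand cover 10.4% of the Nup133 exon length, which makes its count uncertain if strand was not used.

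The remaining Y-complex genes fell less. Log2 fold changes were -0.32 for Sec13 and -0.29 for Seh1l, whose products also serve in other complexes (Sec13 in the COPII coat), and -0.27 for Nup160. Sec13 had 144 and 142 CPM in Ogt iKO against 180 and 178 CPM in control. Seh1l had 227 and 228 CPM against 286 and 272 CPM, and Nup160 had 252 and 243 CPM against 301 and 296 CPM. None of these groups overlapped. Adjusted p values were from 0.000921 to 0.00276 (edgeR). Within each library, which no scaling touches, the log2 ratio of Nup107 to Nup160 was -0.98 and -0.76 in Ogt iKO against -0.25 and -0.31 in control. That of Nup37 to Nup160 was -2.38 and -2.15 against -1.35 and -1.48.

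The inner ring (5 genes) had a median of -0.32. Nup93, the linker that ties the ring together (chromosome 8, 94214564 to 94328100), had 174 and 180 CPM in Ogt iKO against 333 and 320 CPM in control. The libraries of each group were close together and Nup93 fell to 54.2% of control (log2 change -0.88 with SE 0.0569, edgeR adjusted p 6.00e-06). Nup35, a small membrane-binding subunit (chromosome 2, 80638812 to 80660071), was the least abundant member. Its counts were 319 and 272 in control and 201 and 173 in Ogt iKO. In CPM that was 11.8 and 11.2 in Ogt iKO against 20.6 and 17.7 in control, without overlap, and Nup35 fell by 0.74 (SE 0.131, edgeR adjusted p 0.00120). The large solenoid proteins that partner Nup93 changed less, with log2 fold changes of -0.32 for Nup205, -0.26 for Nup155 and -0.23 for Nup188. Nup205 had 337 and 323 CPM in Ogt iKO against 412 and 411 CPM in control. Nup188 had 368 and 350 CPM against 405 and 437 CPM, and Nup155 had 192 and 177 CPM against 216 and 228 CPM. The groups did not overlap for any of them. Within each library the log2 ratio of Nup93 to Nup205 was -0.96 and -0.84 in Ogt iKO against -0.30 and -0.36 in control.

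**Figure D2:**
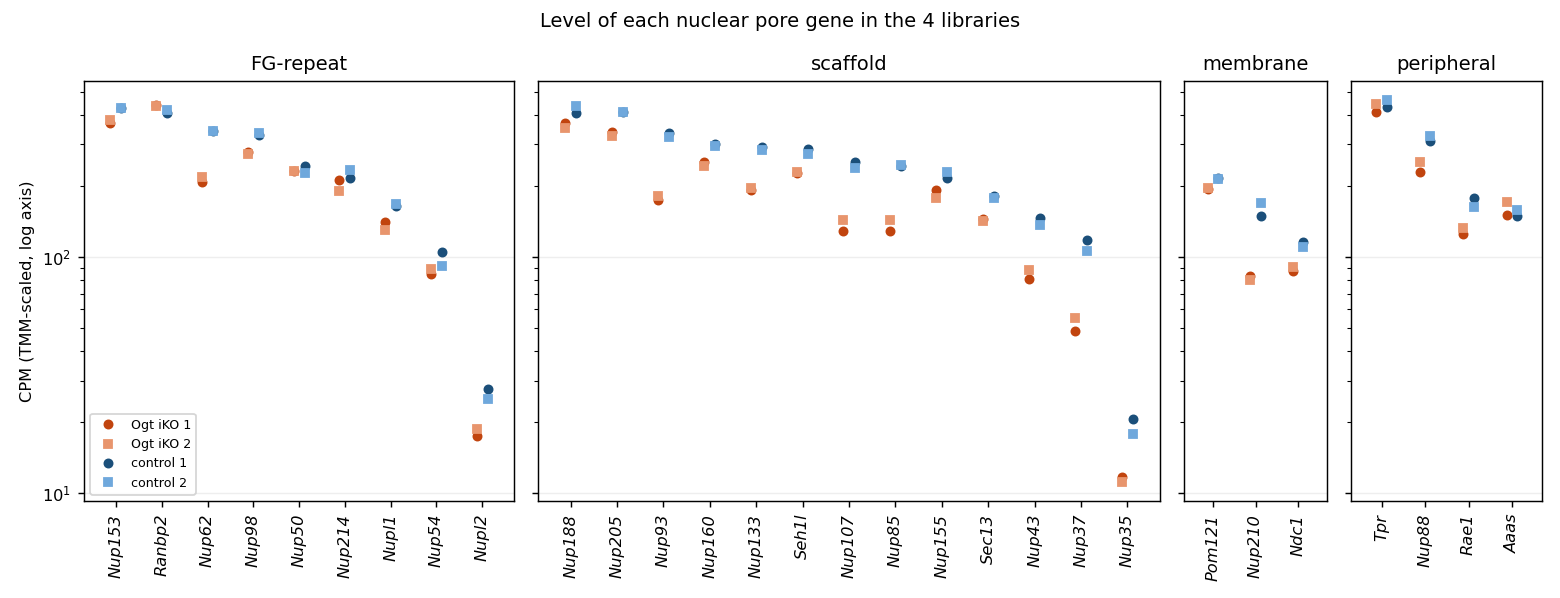
TMM-scaled CPM (log axis) of each nuclear pore gene in the 4 libraries, by group, with Pom121 drawn among the membrane genes. The Ogt iKO points lie below both controls for 25 of the 29 genes, and the exceptions are Ranbp2, Nup50, Tpr and Aaas.

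Of 10 FG-repeat genes, 6 were lower and 0 higher, with a median log2 fold change of -0.18 and a range from -0.68 to 0.09, but under library totals 2 were lower and 2 higher. All genes tested were 32.0% lower and 33.2% higher, and under library totals 22.6% lower and 42.1% higher, so that the 2 lower FG-repeat genes there were near the share of all genes. Without Pom121, which is counted here and as a membrane gene, 5 of 9 were lower. Without Ogt iKO replicate 1, 5 of 10 were lower.

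Nup62 encodes the core of the central channel and is the best known O-GlcNAc-bearing nucleoporin. It lies on chromosome 7 from 44816088 to 44831836. Nup62 had 208 and 219 CPM in Ogt iKO against 342 and 341 CPM in control. The groups were far apart, and Nup62 fell to 62.4% of control (log2 change -0.68 with SE 0.0563, edgeR adjusted p 1.92e-05). Its partners in the channel trimer are the products of Nup54 and Nupl1. Nupl1 had 141 and 130 CPM in Ogt iKO against 164 and 168 CPM in control and fell by 0.30 (SE 0.0623, edgeR adjusted p 0.00310), a call lost under library totals (-0.13, 0.107). Nup54 had 85.0 and 88.9 CPM against 105 and 91.2 CPM, so a control library came close to the treated ones. Its log2 fold change of -0.17 (SE 0.0791) was not past the threshold (adjusted p 0.0853, edgeR). With a library left out, Nup54 ran from -0.28 (without control replicate 2) to -0.08 (without control replicate 1), and under library totals it was -0.0025. The log2 ratio of Nup62 to Nup54 within each library was 1.29 and 1.30 in Ogt iKO against 1.71 and 1.90 in control.

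Nupl2, which helps mRNA export factors dock on the cytoplasmic face, had 17.5 and 18.8 CPM in Ogt iKO against 27.7 and 25.2 CPM in control. It fell to 68.6% of control (log2 change -0.54 with SE 0.104, edgeR adjusted p 0.00182). Nup98, whose precursor also yields the scaffold protein Nup96, had 278 and 273 CPM against 330 and 336 CPM. Its groups did not overlap and it fell by 0.27 (SE 0.0541, edgeR adjusted p 0.00228), but under library totals it was at -0.10 and not called (adjusted p 0.118). Nup153, of the nuclear basket, had 368 and 380 CPM against 427 and 427 CPM and a log2 fold change of -0.19 (adjusted p 0.0136, edgeR). That call was lost under library totals (-0.02, adjusted p 0.728, edgeR). It was also lost without Ogt iKO replicate 1 (-0.16, adjusted p 0.0529, edgeR), control replicate 1 (-0.20, 0.0527) or control replicate 2 (-0.20, 0.0510).

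Besides Nup54, the FG-repeat genes Ranbp2, Nup50 and Nup214 were not called, and Pom121 is described with the membrane genes. Ranbp2, the large SUMO ligase of the cytoplasmic filaments, had 440 and 434 CPM in Ogt iKO against 405 and 417 CPM in control. Both treated libraries were above both controls, yet the log2 fold change of 0.09 (SE 0.0546) had an adjusted p of 0.186 (edgeR). Under library totals it was 0.26 and Ranbp2 was called higher (adjusted p 0.00315). Nup50, a basket protein that binds importins, had 232 and 231 CPM against 242 and 227 CPM, with overlap and a log2 fold change of -0.02 (SE 0.0579). It was 0.15 and called higher under library totals (adjusted p 0.0387, edgeR), and 0.02 without control replicate 1. Nup214, a filament protein that binds the exportin CRM1, had 211 and 191 CPM against 215 and 234 CPM. The groups did not overlap, and its log2 fold change was -0.16 (SE 0.0703, edgeR adjusted p 0.0731). Nup214 was called lower without Ogt iKO replicate 1 (-0.23, adjusted p 0.0148, edgeR), without control replicate 1 (-0.23, 0.0482), with DESeq2 (-0.19, 0.0479) and with edgeR's robust spread (0.0492), while under library totals it was 0.01.

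The gap between scaffold and FG-repeat genes was also read inside each library. The mean log2 CPM of the 13 scaffold genes minus that of the 10 FG-repeat genes was -0.32 and -0.29 in Ogt iKO against 0.04 and 0.02 in control. For the Y complex it was -0.34 and -0.26 against 0.11 and 0.07, and for the inner ring -0.30 and -0.35 against -0.08 and -0.07. The treated libraries thus lay lower in each of these 3 differences, by 0.25 to 0.39 on average. No scaling of libraries can alter these values, which are given as a description without a test.

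**Figure D3:**
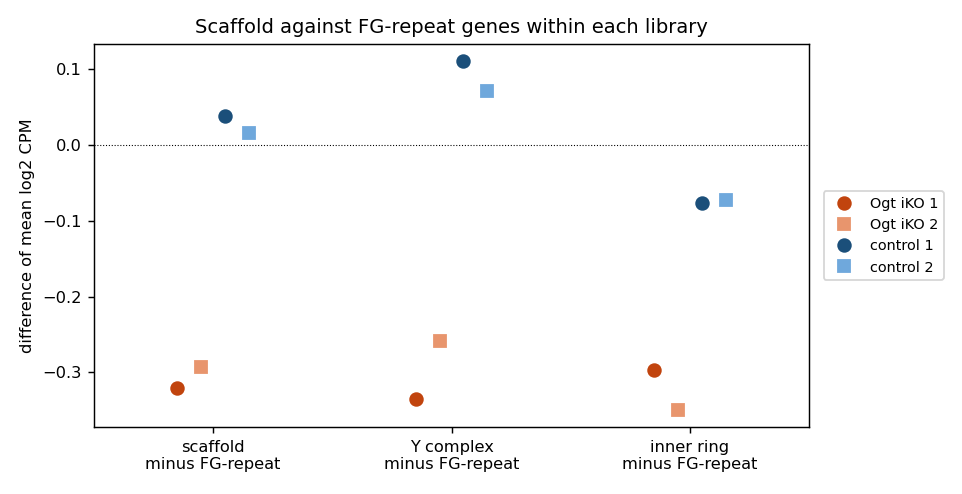
Mean log2 CPM of scaffold, Y-complex or inner-ring genes minus that of FG-repeat genes, by library (y axis). In all 3 columns both Ogt iKO points (-0.26 or lower) lie below both control points (-0.08 or higher).

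FG content and the fold change were set side by side as a description. Nup37 and Sec13 had no FG codon pair, and their log2 fold changes were -1.11 and -0.32. Among the genes with the most pairs per 100 codons, Nupl2 (2.62) had a log2 fold change of -0.54, Nup98 (2.26) -0.27, Nup214 (2.21) -0.16, Pom121 (2.00) -0.14 and Nup153 (1.98) -0.19. Lower in FG content were Nup54 (1.57, log2 fold change -0.17), Nup62 (1.14, -0.68) and Nup50 (1.07, -0.02). Genes with fewer than 1 pair per 100 codons ran from Nup37 to Ranbp2 (0.655 pairs, log2 fold change 0.09).

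**Figure D4:**
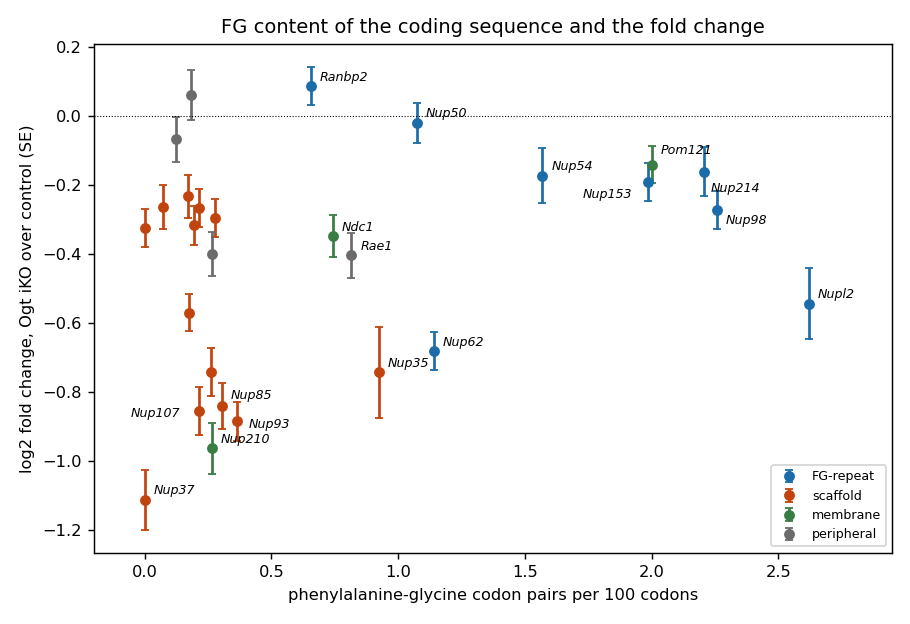
In-frame phenylalanine-glycine codon pairs per 100 codons (x axis) against the log2 fold change with its SE (y axis) for 28 genes, coloured by group. Genes with at least 1.5 pairs per 100 codons lie between -0.54 and -0.14, and those with fewer span -1.11 to 0.09.

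All 3 membrane genes were called lower, though under library totals, or without Ogt iKO replicate 1, Pom121 was not and 2 were. Of all genes tested, 32.0% were lower, and 22.6% under library totals. Nup210, a single-pass glycoprotein of the pore membrane whose level is known to vary among cell types, lies on chromosome 6 from 91013067 to 91118322. It had 83.1 and 79.9 CPM in Ogt iKO against 149 and 169 CPM in control. The groups were far apart and Nup210 fell to 51.3% of control (log2 change -0.96 with SE 0.0748, edgeR adjusted p 1.43e-05). Ndc1, a multi-pass protein that anchors the scaffold, had 87.6 and 90.4 CPM against 116 and 110 CPM and fell by 0.35 (SE 0.0621, edgeR adjusted p 0.00127). The log2 ratio of Nup210 to Ndc1 within each library was -0.08 and -0.18 in Ogt iKO against 0.36 and 0.62 in control. Pom121, an FG protein anchored in the membrane, had 194 and 195 CPM against 215 and 213 CPM. Its log2 fold change of -0.14 (SE 0.0535) passed narrowly (adjusted p 0.0449, edgeR). The call for Pom121 was lost with DESeq2 (adjusted p 0.0571), with upper-quartile factors and with a minimum of 1 CPM. The call was lost as well with a replicate block (adjusted p 0.0862, edgeR) and under library totals, where the log2 fold change was 0.03. It was also lost without Ogt iKO replicate 1 (-0.13), control replicate 1 (-0.14) or control replicate 2 (-0.16). Of the Pom121 exon length, 11.9% lies under exons of Nsun5 on the opposite strand. Nsun5, named for that overlap, had 538 and 542 counts in control and 343 and 311 in Ogt iKO, and its part in the Pom121 count was not tested.

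Of the 4 peripheral genes that carry no FG domain, 2 were lower and 0 higher, also without Ogt iKO replicate 1, against 32.0% and 33.2% of all genes tested. Under library totals 2 were lower and 1 higher, against 22.6% and 42.1%. Nup88, which holds Nup214 at the cytoplasmic face, had 229 and 251 CPM in Ogt iKO against 310 and 324 CPM in control and fell by 0.40 (SE 0.0643, edgeR adjusted p 0.000707). Rae1, an mRNA export factor that binds Nup98, had 125 and 133 CPM against 178 and 163 CPM and fell by 0.40 (SE 0.0663, edgeR adjusted p 0.000786). Neither pair of groups overlapped. Tpr, the coiled coil of the nuclear basket, had 409 and 443 CPM against 432 and 461 CPM, and these overlapped. Its log2 fold change was -0.07 (SE 0.0647, edgeR adjusted p 0.385), and 0.10 under library totals. Aaas, which encodes the WD-repeat protein ALADIN, had 151 and 171 CPM against 150 and 158 CPM. Its log2 fold change was 0.06 (SE 0.0729, edgeR adjusted p 0.482), -0.06 without Ogt iKO replicate 2, and 0.23 and called higher under library totals (adjusted p 0.0229).

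The choice of scaling moved every gene by nearly the same amount, so the order of the members did not depend on it. The lower call held in all 12 alternative fits for 15 of the 23 genes, 9 of them scaffold genes (Nup37, Nup93, Nup107, Nup85, Nup43, Nup35, Nup133, Nup205 and Sec13) and 2 FG-repeat genes (Nup62 and Nupl2). The others of the 15 were Nup210, Ndc1, Nup88 and Rae1. The share of all genes tested that stayed lower in every fit was not computed. These counts therefore have no background to be read against, and library totals alone called 22.6% of all genes lower.

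**Figure D5:**
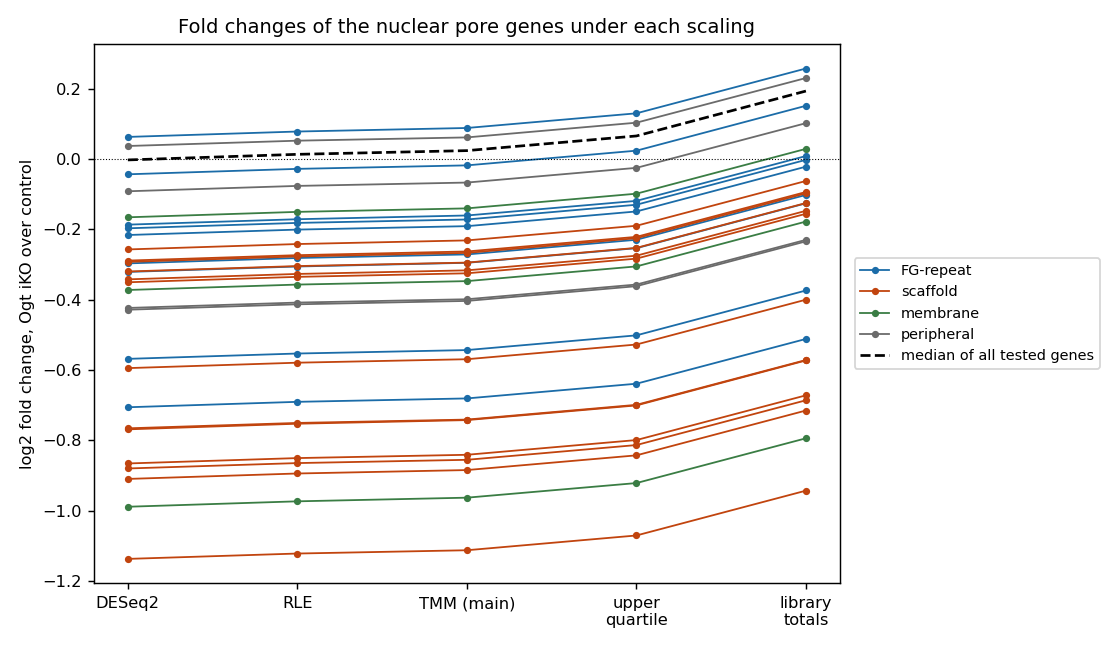
Log2 fold change (y axis, Ogt iKO over control) of each of the 29 genes in DESeq2 and in edgeR under 4 scalings, coloured by group, with the median of all tested genes dashed. Library totals raise all lines, so that Nup214, Nup50, Pom121 and Tpr, below 0 under TMM, lie above 0 there, while Nup37 stays lowest at -0.94.

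Levels were compared between genes as CPM per kilobase of merged exons (28 genes, GENCODE M21). In control, Nup62 was the most abundant at 120 CPM per kb ± 0.220 (SD, n = 2). Nup93 followed at 76.8 ± 2.18, ahead of Nup85. Behind these, Seh1l (67.7 ± 2.25), Nup188 (67.5 ± 3.58) and Rae1 (66.8 ± 4.07) did not differ beyond their spread. The lowest were Nup210 (15.2 ± 1.39), Nupl2 (7.02 ± 0.479) and Nup35 (5.70 ± 0.605). In Ogt iKO, Nup62 was still the most abundant at 74.7 CPM per kb ± 2.64 (SD, n = 2). Behind it stood Nup188 (57.5 ± 2.05), Aaas (57.5 ± 5.11) and Seh1l (55.2 ± 0.310), which overlapped, and Nup93 was down at 41.6 ± 1.03. The merged exon length counts rarely used exons too, so these levels are approximate.

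Promoter sequence was available for 25 of the 29 genes (RefSeq, GRCm38.p6), the others being Nup35, Nup43, Nup85 and Seh1l. The 250 bases before an annotated start are printed for the genes that fell most among scaffold (Nup37), membrane (Nup210) and FG-repeat genes (Nup62), with Ranbp2 as one of the 4 FG-repeat genes that were not called. Nup37 has a pair of annotated starts in the table, and the upstream window is shown. For Nup37 and Nup210 the start used lies inside the gene span given above, so these windows do not precede the outermost end of the gene. Both strands were searched for 5 short motifs, spelled out with their counts after the windows, and capitals mark the matches.
Nup37 (chr10:88146742-88146991, plus strand): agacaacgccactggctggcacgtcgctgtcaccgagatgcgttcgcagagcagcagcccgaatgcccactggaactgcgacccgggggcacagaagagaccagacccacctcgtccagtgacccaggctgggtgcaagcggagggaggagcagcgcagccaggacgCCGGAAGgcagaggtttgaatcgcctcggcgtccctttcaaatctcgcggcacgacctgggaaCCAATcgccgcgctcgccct
Nup210 (chr6:91116827-91117076, minus strand): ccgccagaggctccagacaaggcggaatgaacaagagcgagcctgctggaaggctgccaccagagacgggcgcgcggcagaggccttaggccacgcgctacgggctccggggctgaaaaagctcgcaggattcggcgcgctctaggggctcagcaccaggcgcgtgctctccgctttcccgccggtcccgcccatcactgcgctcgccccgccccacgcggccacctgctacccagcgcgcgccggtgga
Nup62 (chr7:44815838-44816087, plus strand): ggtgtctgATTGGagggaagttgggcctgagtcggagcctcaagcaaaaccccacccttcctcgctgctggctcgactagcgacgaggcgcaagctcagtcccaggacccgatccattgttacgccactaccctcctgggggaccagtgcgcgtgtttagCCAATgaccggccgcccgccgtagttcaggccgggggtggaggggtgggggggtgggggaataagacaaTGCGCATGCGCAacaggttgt
Ranbp2 (chr10:58446602-58446851, plus strand): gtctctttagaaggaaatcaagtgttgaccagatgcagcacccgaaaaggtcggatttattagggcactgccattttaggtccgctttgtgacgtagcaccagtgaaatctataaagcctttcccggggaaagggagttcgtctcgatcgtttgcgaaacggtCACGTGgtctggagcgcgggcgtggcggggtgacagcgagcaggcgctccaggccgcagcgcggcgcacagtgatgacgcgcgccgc
These windows were rich in CpG, with 24 in Nup37, 30 in Nup210, 17 in Nup62 and 25 in Ranbp2. The median over the 25 genes was 21, against 15 over 11446 tested genes and 6 over all 27025 genes in the table. The ETS core, spelled CCGGAAG, was found in 6 of the 25 genes (24.0%), against 14.5% of tested genes and 7.8% of all genes. They were Aaas, Nup107, Nup155, Nup37, Nup54 and Sec13, of which Nup54 and Aaas were not called. The E-box, spelled CACGTG, was found in 4 of 25 genes, against 9.9% of tested and 6.9% of all genes. The CCAAT box, named by its letters, was found in 10 (40.0%, against 40.6% and 37.5%). The YY1 core, spelled AAGATGG, was found in 2 (8.0%, against 4.9% and 5.2%). The NRF1 core, spelled TGCGCATGC, was also found in 2 (8.0%, against 2.8% and 1.5%), and in Nup62 its matches on both strands overlap each other. The motifs were chosen with the results known, and a match is a description of the letters only.

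The genes that work with the pore were read from fixed pathway lists. Of 25 tested transport receptors, the importins and exportins that carry cargo through the FG mesh, 16 were lower and 4 higher, with a median log2 fold change of -0.29. The shares over all genes tested were 32.0% lower and 33.2% higher. Under library totals the list had 8 lower and 9 higher, where 22.6% of all genes were lower and 42.1% higher. Without Ogt iKO replicate 1 it had 14 lower and 4 higher. The called genes with the smallest adjusted p all fell. Ipo5, an importin for ribosomal proteins and histones, had 618 and 655 CPM in Ogt iKO against 1355 and 1356 CPM in control, a log2 fold change of -1.09 (SE 0.0586). Kpnb1, the main importin beta, had 878 and 915 CPM against 1703 and 1647 CPM, a log2 fold change of -0.90 (SE 0.0581). Ipo7 and the tRNA exportin gene Xpot had log2 fold changes of -0.72 and -0.62. Those that rose, named after their values were seen, were Kpna6 (0.29), Tnpo2 (0.30), Ipo13 (0.33) and Nutf2 (0.39). Nutf2 was not called with DESeq2 (0.37), without Ogt iKO replicate 2 (0.23) or without control replicate 2 (0.33).

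The Ran cycle gives transport its direction, and the list for it held 8 genes. All were called, 6 lower and 2 higher, with a median of -0.39, against 32.0% and 33.2% of all genes tested. The 2 higher were Ranbp9 and Ranbp10, whose part in that cycle is not shown here. Under library totals the list had 5 lower and 2 higher, against 22.6% and 42.1% of all genes. The counts without Ogt iKO replicate 1 were 5 lower and 1 higher. Ran itself, the GTPase, had 265 and 288 CPM in Ogt iKO against 411 and 374 CPM in control and fell by 0.50 (SE 0.0695). Its exchange factor gene Rcc1 fell by 0.61 and its activator gene Rangap1 by 0.46. Rangrf had few counts, 76 and 88 in control and 26 and 31 in Ogt iKO, and fell by 1.60 (SE 0.243). Adjusted p values of these were from 6.53e-05 to 0.000508 (edgeR). The rises of Ranbp9 and Ranbp10 (0.22 and 0.21, named after their values were seen) were not called by DESeq2. Without Ogt iKO replicate 1, Ranbp9 was at 0.19 and not called, and without Ogt iKO replicate 2, Ranbp10 was at 0.17 and not called. Neither was called without control replicate 1 (0.21 and 0.18) or without control replicate 2 (0.20 and 0.23).

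Of 18 mRNA export genes, 8 were lower and 2 higher, with a median of -0.10. Of all genes, 32.0% were lower and 33.2% higher. Under library totals 7 were lower and 6 higher, against 22.6% and 42.1% of all genes. Leaving out Ogt iKO replicate 1 gave 7 lower and 2 higher. Ddx39b, the helicase that loads export adaptors on mRNA, had 344 and 365 CPM in Ogt iKO against 648 and 634 CPM in control, a log2 fold change of -0.86 (SE 0.0582). Ddx19b, the helicase that acts at Nup214, had 61.8 and 60.3 CPM against 112 and 116 CPM, a log2 fold change of -0.90 (SE 0.0647). Thoc5 had a log2 fold change of -0.61. Zc3h11a rose by 0.55 and Mcm3ap, the TREX-2 scaffold gene, named after its value was seen, by 0.45. Adjusted p values of these 5 genes were from 7.55e-06 to 0.000663 (edgeR).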

How the data were processed

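Polyadenylated RNA was sequenced from 4 libraries, 2 a group, grouped by their titles. The authors deposited raw counts per gene symbol, 1 table a library. STAR, Picard and mm10 are named in the submitters' processing notes. Versions, annotation and the counted strand are not given in the sources used here. The kit was stranded per the labels' protocols. No row lacked a gene name.

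Counts were tested by edgeR's quasi-likelihood method (edgeR 4.0.16, R 4.3.3, TMM, filterByExpr, all 4 libraries, no covariate), with Benjamini-Hochberg adjustment over all 14525 genes and a threshold of 0.05. The SE is the log2 fold change over the root of its F statistic. Alternatives were RLE, upper-quartile or no scaling factors, DESeq2 1.42.0, other filters, a robust spread, a replicate block, a threshold of 0.01 and leaving out each library. The test was also run on simulated counts in which a small set of genes was changed by known folds, up and down alike. Their spread was set smaller than the one found here. Such counts lack the wide change between groups seen here, so they do not check the choice of scaling. Differences between groups of genes within a library were not tested, and an exact permutation of 2 against 2 libraries could not go below 0.333. A count of 0 allows up to 3 counts, which limits nothing here. Replicates differed by more than counting noise (chi-square per degree of freedom 7.04 and 4.25). Positions came from RefSeq and exon lengths from GENCODE M21, both GRCm38. Same-strand exons of other genes cover 4.55% of the Nup188 exon length, 3.89% of that of Nup35 and 3.40% of that of Nup62. Opposite-strand exons cover 7.88% of that of Nup188. The part of these overlaps in the counts was not tested.

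Members and lists were chosen with earlier results of these data known. Every gene of the rule is named, plus Ogt, Oga and up to 4 called genes of each pathway list with the smallest adjusted p, and Col1a1, Thy1, Pou5f1 and Epcam for the marker lists. Any other gene was named after its values were seen.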

Additional observations from a re-analysis of the deposited data

How the results depend on the processing

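The cause of the changes below was not tested beyond the shift in scale. Scaling by library totals gave 15 lower and 3 higher pore genes (FG-repeat 2 and 2, peripheral 2 and 1), 8 lower and 9 higher transport receptors and 6 higher mRNA export genes, and turned the sign of Nup214 (0.0083), Nup50 (0.15), Pom121 (0.029) and Tpr (0.10). Over all genes it called 6116 higher and 3282 lower, against 4827 and 4651. Upper-quartile factors turned Nup50 (0.024). With a library left out, Nup50 ran from -0.074 to 0.022 (above 0 without control replicate 1), Aaas from -0.056 to 0.16 (below 0 without Ogt iKO replicate 2), Col1a1 from -0.75 to 1.55 and Thy1 from -0.80 to 0.69 (both below 0 without Ogt iKO replicate 1). The 2 higher genes on the Ran-cycle list became 0 with DESeq2 or a threshold of 0.01, and did not all keep the call with a library left out. With a library left out, the median log2 fold change of the pore genes ran from -0.34 to -0.32. That of the FG-repeat genes ran from -0.23 to -0.20 and that of the scaffold genes from -0.61 to -0.55. Over all genes tested it ran from 0.0024 to 0.021. In such a fit the lone library is assumed to vary like the other group. The titles give replicate numbers that are not said to pair cultures (correlation of same-numbered deviations 0.086). With the replicate block, 22 pore genes were lower, Pom121 being lost (adjusted p 0.0862, edgeR), and over all genes 4922 were higher and 4719 lower. Each table held 1 count column, so counts of another strand setting were not compared. Counts of the pore genes ran from 173 (Nup35) to 7521 (Ranbp2), and counting error weighs most in the shallow ones, Nup35 and Nupl2.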

Other observations

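Genes of pore assembly and the nuclear envelope, 20 in the list, were 9 lower and 4 higher in Ogt iKO (edgeR, adjusted p under 0.05), with a median log2 fold change of -0.12. The shares over all genes tested were 32.0% lower and 33.2% higher. Under library totals the list had 7 lower and 6 higher, against 22.6% and 42.1% of all genes, and without Ogt iKO replicate 1 it had 9 lower and 4 higher. Lmnb2, which encodes lamin B2 of the nuclear lamina, had 20.6 and 19.8 CPM in Ogt iKO against 126 and 134 CPM in control. It fell to 15.5% of control (log2 change -2.69 with SE 0.0777, edgeR adjusted p 2.59e-07). Sun1, a LINC-complex protein of the inner membrane found near pores, fell by 0.87. Banf1 and the kinase gene Vrk1, which act on chromatin at the reforming envelope, had log2 fold changes of -0.74 and -0.71. Those that rose were named with their values known, and were Syne1 (1.55), Lemd2 (0.90), Tor1aip1 (0.82) and Chmp7 (0.28). Lemd2 and Chmp7 encode partners in sealing the envelope. Ahctf1, which encodes ELYS, the chromatin-bound partner of the Y complex, is outside the symbol rule and was named after its value was seen. It had 335 and 343 CPM against 434 and 436 CPM and a log2 fold change of -0.36 (SE 0.0540, edgeR adjusted p 0.000465). Oga, which encodes the enzyme that removes O-GlcNAc, had 58.6 and 52.2 CPM against 328 and 325 CPM.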
